A study of Danio rerio with 36 samples.

Results

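The cytochrome P450 genes outside families 1, 24, 26 and 51 were followed in whole zebrafish larvae kept in glucose and sampled after removal of the caudal fin. They were taken as the rows of the deposited gene table whose name begins with cyp and a number, leaving out the cyp1a, cyp1b, cyp1c, cyp1d, cyp24, cyp26 and cyp51 genes. Of 77 such rows among the 30221 genes of the table, 59 reached 1 FPKM, a level scaled to transcript length and to the fragments mapped in the library, in at least 3 of 36 libraries, and these 59 genes are the members described here. The other 18 rows stayed under that floor.

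Cytochrome P450 enzymes are haem proteins that insert an atom of oxygen into fat-soluble molecules. Those of the endoplasmic reticulum take electrons from cytochrome P450 reductase, encoded by por, and those of mitochondria take them from ferredoxin. Liver and gut use families 2 and 3 for drugs, pollutants and fatty acids, and family 4 for fatty acids. Single dedicated enzymes serve bile acids, steroid hormones and vitamins D and A, and these are not all enzymes of liver or gut.

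All larvae were labelled wild type and were raised at 28.5 °C. From 6 h after fertilisation the medium was left regular or held D-glucose at 130 mM or 222 mM, and after 14 days the end of the tail fin was cut off, in a design meant to model how diabetes affects inflammation and regeneration. RNA came from uncut larvae and from larvae 3, 24 and 48 h after amputation in each of the 3 media, which gave 12 groups of 3 libraries. The higher dose is in mM in the sample labels, though the design text once writes nM. Every medium had a single uncut group, so amputation and the time that passed cannot be told apart, and no group with another sugar or salt at the same concentration was analysed here. The labels do not say that the 3 libraries of a group came from separate animals or pools, so p-values measure the spread between these libraries, which may be technical. In RNA from whole larvae, fewer cells of a type and less RNA per cell cannot be told apart.

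Libraries held 47904694 to 67514889 counts. In 4 groups 1 library stood apart, with a correlation of log2 CPM with the other 2 of its group that was over 0.02 below that between those 2. Replicate 3 of uncut 222 mM larvae had a correlation of 0.9545 with its group, against 0.9803 between the others, and replicate 1 of 130 mM larvae at 24 h had 0.96, against 0.9816. Replicate 1 of regular medium at 3 h had 0.9542, against 0.9845, and replicate 3 of uncut larvae in regular medium had 0.9366, against 0.986. All results below use the 36 libraries, and counts over all members in comparisons of 2 groups are also given without these 4. Counts for families, clusters, gene lists and cell type markers are given with all 36 libraries only.

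Cyp3a65, the main zebrafish relative of the human drug-metabolising CYP3A enzymes, had by far the highest level of the members. Its FPKM ran from 170.3 to 621.8 over the libraries, with a mean of 327.6. Next by mean FPKM came cyp2ad3 with 54.49, the cyp2y3 copy ENSDARG00000101423 with 44.01, the cyp3c3 copy ENSDARG00000037873 with 38.61 and cyp3c1 with 35.18. These 5 genes belong to families 2 and 3, in which fish have many copies. Of the members, 39 were at 1 FPKM or more in all 36 libraries, 17 had a mean of at least 10 FPKM and 8 a mean under 1 FPKM. Cyp20a1, an enzyme with no known substrate, varied least among the highly expressed genes named here, from 7.76 to 13.41 FPKM. Among members above 0 FPKM in all libraries, the vitamin D genes cyp2r1 and cyp27b1 varied most, with a highest library 100 and 94 times the lowest. Cyp17a2, with a lowest value of 0, has no such ratio.

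**Figure D1:**
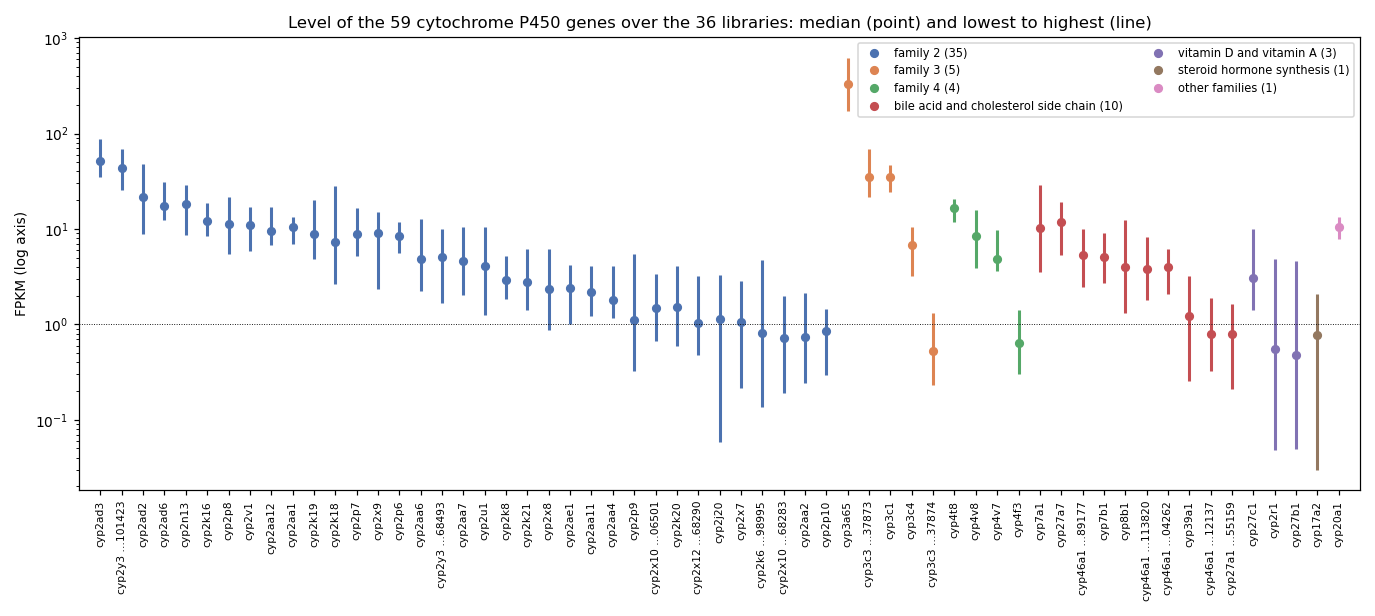
FPKM of the 59 members on a log axis, grouped by role; the point is the median of 36 libraries and the line runs from the lowest to the highest library, with values under 0.03 FPKM drawn at 0.03. Cyp3a65 lies above all other members, and cyp17a2, whose lowest library is listed at 0, near the floor of the selection.

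The steroid hormone genes were at or under the floor. Cyp17a2, a steroid hydroxylase, was the single member of 8 such rows, with a mean of 0.8632 FPKM and values from 0 to 2.099. Cyp11a1, the side-chain cleavage enzyme that starts steroid synthesis, reached at most 0.1199 FPKM, and cyp11a2 at most 0.6034. The aromatase genes cyp19a1a and cyp19a1b, which make oestrogens, reached at most 0.08575 and 0.2627 FPKM. Cyp11c1 and cyp17a1 stayed below 1 FPKM, at up to 0.9596 and 0.737. Cyp21a2, needed for cortisol, passed 1 FPKM in 2 libraries only, with a highest value of 1.357. At the edge of the selection, cyp4f3 was kept with 4 libraries at the floor and a highest value of 1.425 FPKM, and the cyp3c3 copy ENSDARG00000037874 with 5 libraries and 1.3. Just outside it were cyp2k17, which reached 1.506 FPKM in 1 library, and the cyp2x12 copy ENSDARG00000092091, which reached 1.225 in 1.

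Most members lie in tandem arrays, where copies can share reads. Rows less than 100000 bases apart formed 12 clusters that held 55 of the 77 rows and 42 of the 59 members. The largest, on chromosome 20 from 25515259 to 25615802 of GRCz11, held 11 members: cyp2n13, cyp2ad2, cyp2ad3, cyp2ad6, cyp2v1, cyp2p6, cyp2p7, cyp2p8, cyp2p9, cyp2p10 and cyp2j20, fish relatives of the human arachidonic acid epoxygenase CYP2J2. A cluster of cyp2aa genes on chromosome 23, from 42292748 to 42493876, held 7 members of 10 rows. On chromosome 3, 7 of 8 cyp2k rows lay between 12710350 and 12826387, and all 4 cyp3c rows between 40936094 and 40976582. Both cyp2y3 copies overlap on chromosome 15, between 16175 and 32151. Of the members, 20 overlap another gene of the table. Since the strand setting of the counting is not given in the sources used here, values of overlapping genes and of near-identical copies are uncertain for the single gene.

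Of the 59 members, 54 differed among the 12 groups in edgeR's quasi-likelihood F test with Benjamini-Hochberg adjustment, or 91.5%, against 78.6% of the 20120 genes tested. Likewise 54 passed in at least 1 of the 18 comparisons of 2 groups. The share of all genes that did so was not worked out, so that count has no background beside it. The 5 genes that passed in none were cyp8b1, cyp17a2, cyp2aa7, cyp2aa11 and the cyp46a1 copy ENSDARG00000004262. In what follows, higher and lower refer to an adjusted p under 0.05 in edgeR's test.

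In uncut larvae, glucose went with lower levels of a cyp2x12 copy, of cyp4v7 and of cyp2k genes. At 130 mM, 0 members were higher and 6 were lower than in regular medium, or 10.2%, where 2.63% of all genes tested passed, 0.76% higher and 1.87% lower. Those 6 were the cyp2x12 copy ENSDARG00000068290, cyp4v7, cyp2k18, cyp2k19, cyp2k20 and the cyp46a1 copy ENSDARG00000113820. At 222 mM, 1 member was higher and 10 were lower, or 18.6% of members, against 12.6% of all genes, 5.69% higher and 6.91% lower. Cyp2x12, cyp4v7, cyp2k18, cyp2k19 and cyp2k20 were lower there as well, with cyp4v8, cyp2ad3, cyp2p8, cyp2aa2 and cyp3c4. Without the 4 libraries that stood apart the counts were 3 higher and 24 lower at 130 mM, where 28.8% of all genes passed, and 3 higher and 31 lower at 222 mM, where 29.1% did. With 1 library left out, the 130 mM count was 3, 2 and 0 without replicates 1, 2 and 3 of 130 mM, and for regular medium 1, 2 and 23 without replicates 1, 2 and 3. The 222 mM count was 7 without replicate 1 of 222 mM, and for regular medium 4 and 22 without replicates 1 and 3. Between the doses, 1 member, cyp27a7, passed, lower at 222 mM than at 130 mM, or 1.69%, against 7.63% of all genes, 4.65% higher and 2.98% lower. That count was 0 without replicate 1 or 2 of 222 mM or replicate 2 of 130 mM, and 4 without replicate 3 of 222 mM.

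The uncut larvae also differed in markers of the organs that hold these enzymes. Of 8 enterocyte markers, 1 was higher and 7 were lower at 222 mM than in regular medium, with a summed level of 761 to 801 FPKM at 222 mM, against 1080 to 2060 in regular medium. At 130 mM the enterocyte sum was 992 to 1050 FPKM. The 10 hepatocyte markers summed to 1660 to 2570 FPKM at 222 mM and 729 to 1280 at 130 mM, against 578 to 2900 in regular medium. No marker of either list was at 0 in all libraries of a group, and their part in the member results was not tested.

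In regular medium, many members were lower at the later times after amputation than in uncut larvae. At 3 h, 5 members were higher and 3 lower than before the cut, or 13.6%, close to the 15.1% of all genes, 8.04% higher and 7.06% lower. At 24 h, 3 were higher and 8 lower, or 18.6%, against 9.78% of all genes, 5.54% higher and 4.24% lower. At 48 h, 1 was higher and 15 were lower, or 27.1%, against 14.5% of all genes, 7.09% higher and 7.45% lower. Of the 15, 11 belong to family 2, among them cyp2k16, cyp2k18, cyp2k19 and cyp2k20 and all 3 members of the cyp2x cluster on chromosome 25. Without the 4 libraries that stood apart, the counts were 6 higher and 8 lower at 3 h, 9 and 14 at 24 h, and 5 and 23 at 48 h, where 22.5%, 27% and 37.7% of all genes passed. With 1 library left out, the 3 h count was 3 and 4 without replicates 2 and 3 at 3 h and 5 without replicate 3 of the uncut larvae. The 24 h count was 4, 4 and 2 without replicates 1, 2 and 3 at 24 h, and 6, 4 and 18 without replicates 1, 2 and 3 of the uncut larvae. The 48 h count was 7 without replicate 3 at 48 h, 8 without replicate 1 or 2 of the uncut larvae and 25 without replicate 3 of them. At 48 h the hepatocyte markers summed to 770 to 1030 FPKM, against 578 to 2900 in uncut larvae, and the exocrine pancreas markers to 2200 to 2810, against 3870 to 6000. Their part in the counts was not tested.

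In 130 mM glucose, members were called at 3 and 48 h after the cut and more of them higher than lower. At 3 h, 18 members were higher and 7 lower than in uncut 130 mM larvae, or 42.4%, close to the 38.2% of all genes, 20.9% higher and 17.3% lower. The 18 covered most roles, with 9 of family 2, 3 of family 3, 3 bile acid and cholesterol genes and all 3 vitamin genes. At 24 h, 0 members passed, against 2.67% of all genes, 1.77% higher and 0.9% lower. An unadjusted p under 0.05 in edgeR's test was found for 11 of the 59 members, where 20% of all genes had one, and DESeq2 called 5 members. At 48 h, 7 were higher and 0 lower, or 11.9%, against 6.14% of all genes, 3.58% higher and 2.56% lower. Without the libraries that stood apart, the counts were 22 higher and 11 lower at 3 h, 11 and 0 at 24 h, and 13 and 4 at 48 h, where 48.8%, 18.6% and 20.6% of all genes passed. The 3 h counts ran from 16 to 22 with 1 library left out, the lowest without replicate 2 or 3 of the uncut larvae or replicate 1 at 3 h. The 24 h count was 4 without replicate 1 at 24 h and 1 without replicate 1 of the uncut larvae. The 48 h count was 4 and 3 without replicates 2 and 3 at 48 h, and 2 and 3 without replicates 2 and 3 of the uncut larvae. Hepatocyte markers summed to 1670 to 2610 FPKM at 3 h, against 729 to 1280 in the uncut larvae, with 7 of 10 higher, and enterocyte markers to 1950 to 2460, against 992 to 1050, with 6 of 8 higher. Their part in the 3 h counts was not tested.

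In 222 mM glucose the members differed from uncut larvae mainly at 48 h. At 3 h, 0 members passed, against 0.895% of all genes, 0.512% higher and 0.383% lower. An unadjusted p under 0.05 in edgeR's test was found for 15 of the 59 members, where 14.2% of all genes had one, and DESeq2 called 1 member. At 24 h, 1 member was higher, cyp27c1, and 3 were lower, cyp2x7, cyp2x8 and cyp2aa12, or 6.78%, against 4.6% of all genes, 1.81% higher and 2.79% lower. At 48 h, 8 were higher and 7 lower, or 25.4%, against 17.2% of all genes, 8.41% higher and 8.74% lower. Without the libraries that stood apart, the counts were 8 higher and 5 lower at 3 h, 8 and 6 at 24 h, and 14 and 11 at 48 h, where 17.9%, 18% and 24.7% of all genes passed. With 1 library left out, the 3 h count was 1 and 2 without replicates 1 and 3 at 3 h and 4 without replicate 3 of the uncut larvae, and the 24 h count was 7 without that uncut library. It was 2 without replicate 2 of the uncut larvae. The 48 h count was 9 without replicate 1 of the uncut larvae or without any of the 3 libraries at 48 h.

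After amputation, the larger dose went with lower levels of many members than in regular medium at 3 and 24 h. The smaller dose went with higher levels than in regular medium at 48 h, when regular medium itself was below its uncut larvae for 15 members. At 222 mM, 1 member was higher and 19 were lower than in regular medium at 3 h, or 33.9%, against 23.9% of all genes, 11% higher and 12.9% lower. At 24 h, 1 was higher and 21 were lower, or 37.3%, near the 34.1% of all genes, 15.7% higher and 18.4% lower. Lower members thus made up 32.2% and 35.6% of the 59. The median log2 fold change over the members was -0.44 at 3 h and -0.45 at 24 h, against 0.01 over all genes at both times. At 48 h, 5 were higher and 8 lower, or 22%, against 16.5% of all genes, 7.05% higher and 9.48% lower. Without the libraries that stood apart, 6 were higher and 24 lower at 3 h, 6 and 26 at 24 h, and 11 and 12 at 48 h, where 35.1%, 46.4% and 29.3% of all genes passed. With 1 library left out, 13 to 24 passed at 3 h, the lowest without replicate 1 or 2 of 222 mM, and 16 to 22 at 24 h.

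At 130 mM, 1 member was higher and 8 were lower than in regular medium at 3 h, or 15.3%, against 9.5% of all genes, 4.54% higher and 4.96% lower. At 24 h, 2 were higher and 7 lower, or 15.3%, against 7.03% of all genes, 2.34% higher and 4.69% lower. At 48 h, 16 were higher and 4 lower, or 33.9%, against 19.9% of all genes, 8.98% higher and 10.9% lower. The median log2 fold change at 48 h was 0.38 over the members and -0.02 over all genes. Without the libraries that stood apart, 7 were higher and 19 lower at 3 h, 4 and 8 at 24 h, and 23 and 8 at 48 h, where 31.8%, 11.1% and 34.2% of all genes passed. With 1 library left out, the 3 h count was 4, 4 and 5 without replicates 1, 2 and 3 of 130 mM, and for regular medium 16, 3 and 4 without replicates 1, 2 and 3. The 24 h count was 5 without replicate 1 of 130 mM, and for regular medium 5, 4 and 3 without replicates 1, 2 and 3, and the 48 h count ran from 14 to 16. All comparisons of a medium with regular medium at 1 time share the same 3 regular libraries. At 48 h 1 member was higher and 15 were lower in these libraries than in uncut regular larvae, where 7.45% of all genes were lower. Against uncut 130 mM larvae, 7 members were higher and 0 lower in 130 mM at 48 h, where 3.58% of all genes were higher.

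**Figure D2:**
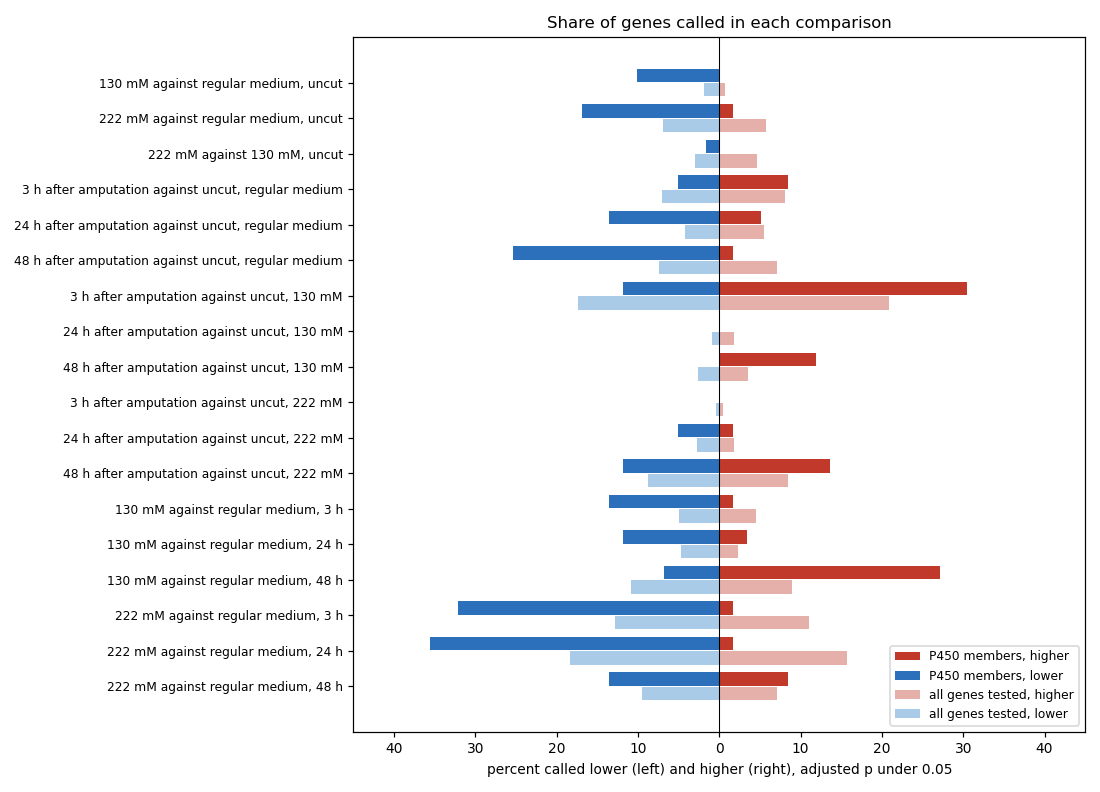
Percent of the 59 members and of all 20120 genes tested that were higher or lower at an adjusted p under 0.05 in edgeR's test, in 18 comparisons. At 222 mM against regular medium, 32.2% of members were lower at 3 h and 35.6% at 24 h, and at 130 mM 27.1% were higher at 48 h.

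Markers of gut, liver and pancreas also differed between 222 mM and regular medium, though not all at the same times or in the same direction. The enterocyte sum at 3 h was 639 to 1180 FPKM at 222 mM, against 2080 to 2380 in regular medium, with 5 of 8 markers lower. At 24 h it was 675 to 928 FPKM at 222 mM, against 1280 to 1530, again with 5 of 8 lower, and at 48 h 754 to 844, against 1040 to 1180, with mep1b and apoa1a lower and cdh17 higher. Hepatocyte markers summed to 2320 to 3400 FPKM at 222 mM at 3 h, against 1720 to 2790, with fabp10a and serpina1 higher of 10. They summed to 1740 to 1960 FPKM at 24 h, against 1630 to 1960, with 2 higher and 1 lower, and to 1270 to 1600 at 48 h, against 770 to 1030, with 2 higher. Of 4 pancreas markers, 3, 1 and 4 were higher at 3, 24 and 48 h and 0 lower. Their sums at 222 mM overlapped those of regular medium at 3 h, at 6450 to 8890 FPKM against 5690 to 6560. They overlapped at 24 h too, at 6740 to 7500 FPKM against 5090 to 6940. At 48 h the pancreas sums were 4370 to 5000 FPKM, against 2200 to 2810. At 48 h in 130 mM, hepatocyte markers summed to 1800 to 2070 FPKM, against 770 to 1030 in regular medium, enterocyte markers to 1350 to 1530, against 1040 to 1180, and pancreas markers to 6320 to 6840, against 2200 to 2810. The part of these markers in the member results was not tested.

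**Figure D3:**
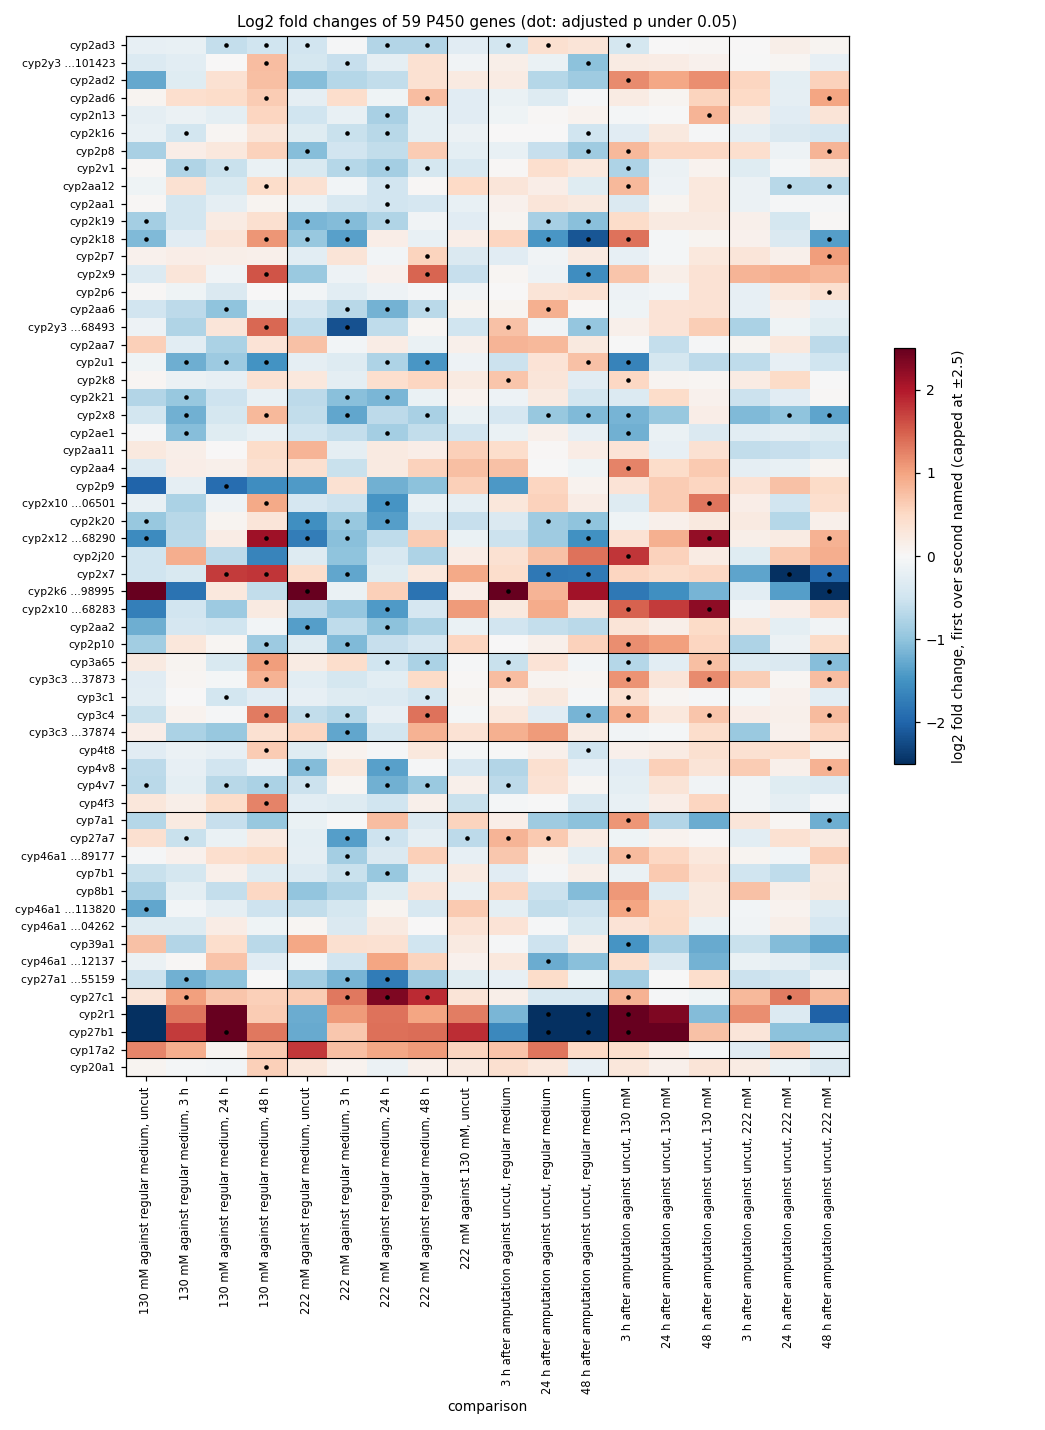
Log2 fold change of each of the 59 members in the 18 comparisons, colours held at 2.5 in either direction; a dot marks an adjusted p under 0.05. The columns of 222 mM against regular medium at 3 and 24 h hold 19 and 21 lower members, and cyp27c1 is the higher one in both.

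Among the bile acid genes, cyp7b1 and cyp27a7 were lower in 222 mM, and calls for cyp7a1 depended on single libraries. Cyp7a1, the rate-limiting enzyme, had 24.6, 16.9 and 23.4 FPKM at 3 h in 130 mM, against 13.8, 6.64 and 10.6 in uncut 130 mM larvae, with no overlap. The log2 fold change was 1.11 ± 0.4 (SE, adjusted p = 0.032), and the call was lost without replicate 2 (0.86, 0.14) or 3 (1.13, 0.072) of the uncut larvae and without replicate 1 (0.99, 0.095) or 3 (1.06, 0.07) at 3 h. In 222 mM it had 7.02, 6.47 and 5.89 FPKM at 48 h, against 13.1, 14.3 and 14.7 in uncut larvae (log2 fold change -1.23 ± 0.41, adjusted p = 0.037). That call was lost with any single library left out, at adjusted p-values from 0.053 to 0.11. In uncut larvae in regular medium cyp7a1 spanned 20.6, 23.6 and 7.12 FPKM, the last value in the library that stood apart. At 24 h it had 13.5, 16.9 and 16.1 FPKM in 222 mM, against 8.93, 8.98 and 8.94 in regular medium. These groups did not overlap, but cyp7a1 passed in no comparison of a glucose medium with regular medium.

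Cyp8b1, which sets the proportions of the bile acids made, passed in no comparison. Its widest group was 222 mM at 3 h, with 1.3, 2.79 and 11.2 FPKM. Cyp7b1 acts in the alternative route that starts from oxysterols. It had 4.64, 2.7 and 2.85 FPKM at 24 h in 222 mM, against 5.57, 7.33 and 6.62 in regular medium, so the groups did not overlap. It was lower by a log2 fold change of -0.94 ± 0.2 (adjusted p = 0.00046), and this held with each of the 6 libraries left out. Cyp39a1, another oxysterol hydroxylase, was lower at 3 h than in uncut larvae in 130 mM, with 0.254, 1.07 and 1.1 FPKM at 3 h, against 2.14, 2.63 and 2.19 (log2 fold change -1.48 ± 0.49, adjusted p = 0.018). The call was lost without replicate 2 of the uncut larvae (-1.39, 0.05) and without replicate 1 at 3 h (-1.06, 0.1).

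Cyp27a7 is named as a relative of Cyp27a1, the mitochondrial enzyme that oxidises the sterol side chain in mammals. It had 5.34, 7.29 and 6.7 FPKM at 3 h in 222 mM, against 17.7, 18.2 and 19 in regular medium. All 222 mM libraries lay far below all regular ones, and the log2 fold change was -1.37 ± 0.16 (adjusted p = 1e-06). In regular medium the gene was higher at 3 h than in uncut larvae, which had 11.3, 9.59 and 10.3 FPKM (log2 fold change 0.85 ± 0.16, adjusted p = 0.00082). Both calls held with each library left out. In uncut larvae it had 7.1, 7.12 and 9.54 FPKM at 222 mM, against 13.4, 14.6 and 13 at 130 mM (log2 fold change -0.66 ± 0.16, adjusted p = 0.011), a call lost without replicate 2 of 130 mM (-0.62, 0.05) or replicate 1 (-0.6, 0.052) or 2 (-0.55, 0.052) of 222 mM. The neighbouring cyp27a1 copy ENSDARG00000055159 was also lower in 222 mM at 24 h, with 0.426, 0.406 and 0.533 FPKM, against 1.58, 1.42 and 1.58 in regular medium (log2 fold change -1.75 ± 0.36, adjusted p = 0.00037).

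The cyp46a1 copies, relatives of the mammalian brain enzyme that clears cholesterol, gave calls that depended on single libraries. In 130 mM at 3 h, copy ENSDARG00000113820 had 3.92, 4.83 and 6.12 FPKM, against 2.99, 2.48 and 2.27 in uncut larvae (log2 fold change 0.98 ± 0.34, adjusted p = 0.022). Copy ENSDARG00000089177 had 8.38, 8.96 and 7.71 FPKM, against 5.04, 5.79 and 4.07 (log2 fold change 0.8 ± 0.3, adjusted p = 0.035). Neither pair of groups overlapped, yet the first call was lost in 3 and the second in 4 of 6 fits with 1 library left out, at adjusted p-values of 0.067 to 0.09 and 0.068 to 0.13. Summed over the 10 bile acid and cholesterol members, the level at 24 h was 49.3 ± 0.744 FPKM in 222 mM and 51.8 ± 2.29 FPKM in regular medium (SD, n = 3 each), a log2 ratio of -0.07. That sum joins members on either side of regular medium, with cyp7a1 above it though not called and cyp7b1 lower.

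Other genes of bile acid handling were tested as a list of 14. At 3 h in 222 mM, slc27a2a and ch25h were higher than in regular medium, and slc27a2b, acox3 and abcb11a were lower. Of all genes, 11% were higher and 12.9% lower at that time. Slc27a2a averaged 28.9 FPKM against 9.3 (log2 fold change 1.78, adjusted p = 7.6e-08), and abcb11a 2.48 against 4.59 (-0.74, 0.029). At 24 h in 222 mM 0 were higher and 8 lower than in regular medium, where 15.7% of all genes were higher and 18.4% lower. They included fabp6, the bile acid carrier of the ileum, at a mean of 125 FPKM against 358 (log2 fold change -1.52, adjusted p = 0.00021), and slc27a2b, an acyl-CoA synthetase, at 1.37 against 4.14 (-1.6, 8.5e-08). At 48 h in 222 mM, 4 were higher and 1 lower, with 7.05% and 9.48% of all genes, among the higher ones the bile salt exporter genes abcb11a, at 4.88 FPKM against 1.46 (1.76, 2e-05), and abcb11b, at 9.97 against 3.08 (1.72, 0.011). At that time in 130 mM, 5 were higher and 0 lower, with 8.98% of all genes higher and 10.9% lower. At 3 h in 130 mM 7 were higher and 2 lower than in uncut 130 mM larvae, with 20.9% of all genes higher and 17.3% lower.

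**Figure D4:**
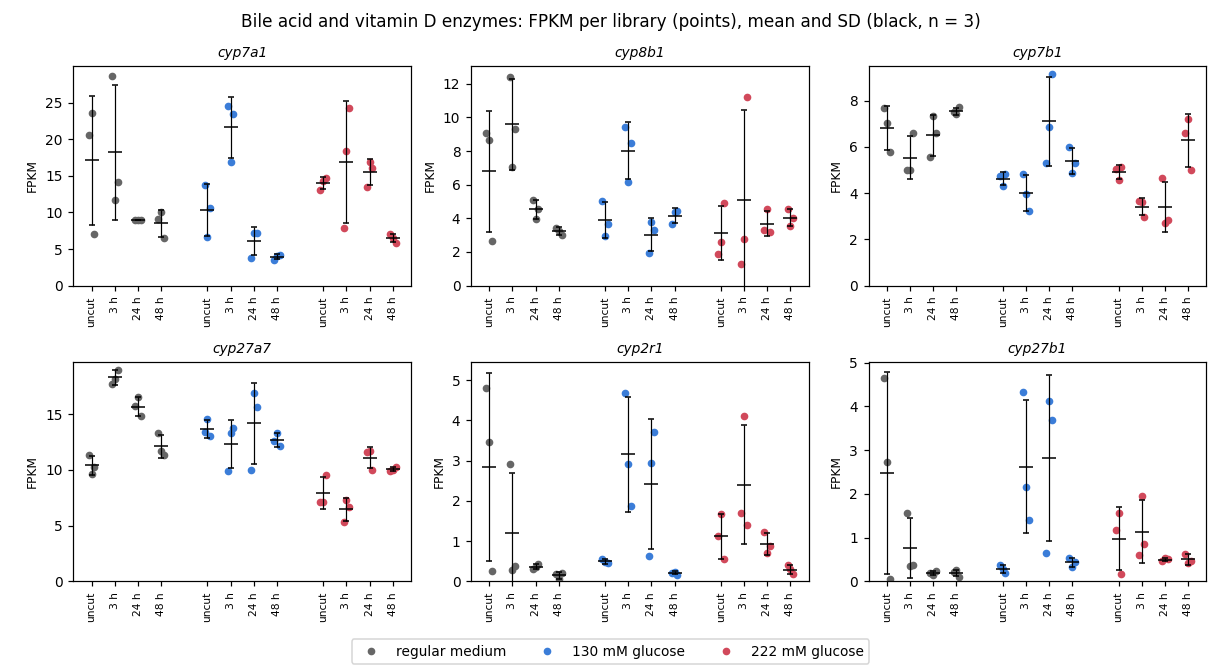
FPKM of 6 bile acid and vitamin D genes in each library of the 12 groups, with the group mean and SD (n = 3). Cyp27a7 lies at 5.34 to 7.29 FPKM in 222 mM at 3 h and at 17.7 to 19 in regular medium, and cyp2r1 and cyp27b1 in uncut regular medium have 2 high libraries and 1 low.

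The vitamin genes included the member that was higher in 222 mM than in regular medium at all 3 times after the cut. Cyp27c1 converts vitamin A1 to A2 in the zebrafish eye, which shifts vision towards red light. At 24 h it had 7.33, 9.38 and 9.89 FPKM in 222 mM, against 1.8, 1.94 and 1.44 in regular medium. Each 222 mM library was more than 3 times any regular one, and the log2 fold change was 2.34 ± 0.31 (adjusted p = 1.4e-06). At 48 h the values were 7.6, 5.78 and 6.1 FPKM in 222 mM, against 2.23, 1.41 and 1.84 (log2 fold change 1.86 ± 0.3, adjusted p = 0.0001). At 3 h they were 6.24, 8.06 and 3.15 FPKM, against 3.8, 1.83 and 1.9, where the lowest 222 mM library overlapped the highest regular one (1.31 ± 0.3, adjusted p = 0.0022). All 3 calls held with each library left out. The higher regular value at 3 h came from the library that stood apart, and without the 4 such libraries the log2 fold change at 3 h was 1.85 (adjusted p = 4e-06).

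Within 222 mM, cyp27c1 was higher at 24 h than in uncut larvae, which had 3.44, 3.09 and 3.62 FPKM (log2 fold change 1.29 ± 0.3, adjusted p = 0.0095). The call was lost without replicate 2 of the uncut larvae (1.19, 0.055). In 130 mM at 3 h it had 5.41, 5.07 and 5.1 FPKM, above both regular medium at 3 h (1.03 ± 0.3, adjusted p = 0.026) and uncut 130 mM larvae, at 3.57, 2.82 and 2.49 (0.86 ± 0.3, adjusted p = 0.023). The comparison with regular medium held only without replicate 1 of regular medium, with adjusted p-values of 0.057 to 0.18 without any other library. The comparison with uncut larvae was lost without replicate 2 (0.81, 0.072) or 3 (0.75, 0.092) of them or replicate 1 at 3 h (0.81, 0.063). In uncut larvae cyp27c1 passed at neither dose.

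Cyp2r1 makes the circulating form of vitamin D in the human liver, and Cyp27b1 turns it into the active hormone. Their levels were high in a few libraries and low in the rest. Uncut larvae in regular medium had 4.8, 3.46 and 0.248 FPKM of cyp2r1 and 4.64, 2.73 and 0.0494 of cyp27b1, with the low value of each in the library that stood apart. At 24 h in regular medium cyp2r1 was at 0.295, 0.363 and 0.422 FPKM (log2 fold change -2.94 ± 0.86, adjusted p = 0.032) and cyp27b1 at 0.195, 0.148 and 0.228 (-3.65 ± 0.96, adjusted p = 0.018). At 48 h cyp2r1 was at 0.19, 0.0479 and 0.207 FPKM (-4.26 ± 0.94, adjusted p = 0.0039) and cyp27b1 at 0.219, 0.247 and 0.108 (-3.69 ± 0.96, adjusted p = 0.012). For cyp27b1 the groups overlapped at both times through the low uncut library, and for cyp2r1 at 24 h.

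In 130 mM the same genes were higher at 3 h than in uncut larvae. Cyp2r1 had 4.68, 2.91 and 1.87 FPKM, against 0.558, 0.478 and 0.441 in uncut larvae (log2 fold change 2.72 ± 0.85, adjusted p = 0.014). Cyp27b1 had 4.32, 2.16 and 1.39 FPKM, against 0.374, 0.281 and 0.195 (3.24 ± 0.93, adjusted p = 0.0078). No library of one group reached the other. The cyp27b1 call held with each library left out, and that of cyp2r1 was lost without replicate 1 at 3 h (2.31, 0.055). At 24 h cyp27b1 was higher in 130 mM, at 0.652, 4.12 and 3.69 FPKM, than in regular medium (3.87 ± 0.96, adjusted p = 0.015), where the low value came from the library that stood apart. That call was lost without any 1 of the 3 regular libraries, at adjusted p-values of 0.059 to 0.069. Of the calls in regular medium, cyp2r1 at 48 h held with each library left out. Cyp2r1 at 24 h was lost without every library except replicate 3 of the uncut larvae (0.082 to 0.12), cyp27b1 at 24 h without replicate 1 of the uncut larvae or any library at 24 h (0.06 to 0.079), and cyp27b1 at 48 h without replicate 1 of the uncut larvae (0.078) or replicate 3 at 48 h (0.065). Cyp2r1 spans chromosome 7 from 27455321 to 27697234 and overlaps calca on the other strand.

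Genes that act with vitamin D were called in uncut larvae at both doses. Their calls were not checked with libraries left out, and 1 library of uncut regular medium stood apart. Of 9 tested, 1 was higher and 4 lower in uncut larvae at 130 mM than in regular medium, where 2.63% of all genes passed, and 2 were higher and 4 lower at 222 mM, where 12.6% did. Lrp2b and cubn, of the families of endocytic receptors that take up the vitamin D carrier in mammals, were lower at both doses, as was dhcr7, which uses up the precursor of the vitamin. Lrp2b averaged 2.65 FPKM at 130 mM and 2.8 at 222 mM, against 8.2 in uncut larvae in regular medium (log2 fold change -1.63, adjusted p = 0.01, and -1.44, 0.0053). Trpv6, the calcium channel of absorbing epithelia, was higher at both doses, at 32.8 FPKM in 130 mM and 17.4 in 222 mM, against 5.99 (2.47, 4e-08, and 1.68, 7.3e-06). In regular medium 2 were higher and 3 lower at 48 h than in uncut larvae, where 14.5% of all genes passed. At 24 h in 222 mM 1 was higher and 2 were lower than in regular medium, near the 34.1% of all genes. The higher one was again trpv6, with a mean of 18.6 FPKM against 6.38 (log2 fold change 1.54, adjusted p = 2.3e-06). It was higher at 48 h in 130 mM as well, at 13.7 FPKM against 4.35 (1.81, 1.4e-06), and in 222 mM, at 6.72 against 4.35 (0.66, 0.029). At 48 h in 130 mM vdrb, a vitamin D receptor gene, was lower, at 8.27 FPKM against 19 (-1.05, 0.00016).

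At 48 h, cyp3a65 was above regular medium at the lower dose and below it at the higher dose. It had 555, 612 and 622 FPKM in 130 mM, against 343, 324 and 303 in regular medium (log2 fold change 1.04 ± 0.19, adjusted p = 0.00034). In 222 mM it had 187, 177 and 180 FPKM, against the same regular libraries (-0.8 ± 0.19, adjusted p = 0.004). The 3 media did not overlap, the lower dose lying above regular medium and the higher dose below it, and both calls held with each library left out. Levels at 48 h were not tested between the doses. Over all times, cyp3a65 was higher than in regular medium in 1 glucose comparison and lower in 2. At 24 h it had 338, 272 and 267 FPKM in 222 mM and 257, 340 and 362 in 130 mM. Regular medium had 475, 365 and 386 FPKM at that time. Against uncut larvae of the same medium, cyp3a65 was higher in 1 comparison and lower in 3. In 130 mM all libraries at 48 h lay above those of uncut larvae. It was lower at 48 h in 222 mM, where uncut larvae had 410, 352 and 298 FPKM (-1.07 ± 0.19, adjusted p = 0.00027). It was lower at 3 h in 130 mM, at 170, 238 and 288 FPKM against 424, 350 and 395 in uncut larvae (-0.71 ± 0.19, adjusted p = 0.0045). In regular medium at 3 h it had 221, 230 and 218 FPKM, against 405, 342 and 259 in uncut larvae (-0.55 ± 0.19, adjusted p = 0.047), a call that held only without replicate 3 of the uncut larvae (0.054 to 0.2 without any other).

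Cyp3c4, a fish gene of the same family with no well-known substrate, was high at 48 h in both doses. It had 7.42, 8.32 and 8.43 FPKM in 130 mM, against 3.55, 4.15 and 3.23 in regular medium (log2 fold change 1.3 ± 0.2, adjusted p = 5e-05). In 222 mM it had 10.4, 8.38 and 8.56 FPKM (1.35 ± 0.2, adjusted p = 2.8e-05). The glucose libraries all lay above the regular ones, which in turn were below uncut larvae in regular medium, at 10.3, 8.86 and 5.19 FPKM (-1.17 ± 0.2, adjusted p = 0.00029). These 3 calls held with each library left out. At 3 h the direction was opposite in 222 mM, with 4.55, 6.92 and 4.42 FPKM, against 9.95, 8.88 and 9.76 in regular medium (-0.71 ± 0.2, adjusted p = 0.0097), lost without replicate 1 of 222 mM (-0.59, 0.066). Its neighbour, the cyp3c3 copy ENSDARG00000037873, was higher than in uncut larvae in 4 comparisons. At 3 h in 130 mM it had 44.2, 56.7 and 69.2 FPKM against 29.3, 26.6 and 24.9 (1.12 ± 0.24, adjusted p = 0.00075). At 3 h in regular medium it had 41.2, 60.9 and 65.8 FPKM against 35, 37.3 and 26.4. The other calls were at 48 h in 130 mM and in 222 mM. Cyp3c1, also in that cluster, had 24.6 to 46.8 FPKM over all libraries and passed in 3 comparisons. It was lower at 24 h in 130 mM (-0.46 ± 0.14, adjusted p = 0.042) and at 48 h in 222 mM (-0.46 ± 0.14, adjusted p = 0.023) than in regular medium, and higher at 3 h than in uncut larvae in 130 mM (0.38 ± 0.14, adjusted p = 0.034). The first call was lost without any library but replicate 2 of 130 mM (0.095 to 0.17), the second without replicate 1 of regular medium or 1 or 3 of 222 mM (0.059 to 0.12), and the third without replicate 2 or 3 of either group (0.091 to 0.18).

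In family 4, cyp4v7 was lower in both glucose media, and cyp4v8 was lower in 222 mM at 24 h and in uncut larvae. They are relatives of human CYP4V2, a fatty acid hydroxylase. Cyp4v7 had 4.22, 4.2 and 4.23 FPKM at 24 h in 222 mM, against 9.86, 9.54 and 9.74 in regular medium. The spread within either group was small beside the gap, and the log2 fold change was -1.21 ± 0.13 (adjusted p = 6.2e-08). At 48 h it had 4.18, 4.14 and 4.23 FPKM in 222 mM and 4.41, 4.39 and 3.88 in 130 mM, against 8.24, 7.75 and 8.33 in regular medium (-0.92 ± 0.13, adjusted p = 1.6e-05, and -0.79 ± 0.13, adjusted p = 0.00012). At 24 h in 130 mM it had 4.79, 6.58 and 6.74 FPKM (-0.7 ± 0.13, adjusted p = 0.0015). These 4 calls held with each library left out.

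In uncut larvae cyp4v7 had 4.26, 5.47 and 5.04 FPKM at 222 mM and 5.35, 5.01 and 4.42 at 130 mM, against 8.91, 7.28 and 7.42 in regular medium. The groups did not overlap, with log2 fold changes of -0.54 ± 0.13 (adjusted p = 0.0057) and -0.67 ± 0.13 (adjusted p = 0.006). The first call was lost without replicate 1 of regular medium (-0.44, 0.056), and the second without that library (-0.56, 0.065) or replicate 3 of 130 mM (-0.6, 0.06). In regular medium the gene was also lower at 3 h than in uncut larvae, at 3.9, 4.91 and 5.94 FPKM (-0.66 ± 0.13, adjusted p = 0.0014). At that time it passed against regular medium in neither dose. Cyp4v7 overlaps fam149a on the same strand, so its reads may be shared.

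Cyp4v8 was lower at 24 h in 222 mM, with 5.98, 6.94 and 4.71 FPKM, against 15, 15.7 and 14.5 in regular medium (log2 fold change -1.36 ± 0.26, adjusted p = 0.00021). In uncut larvae it had 3.92, 4.75 and 6.48 FPKM in 222 mM, against 14.5, 12.3 and 8.42 in regular medium (-1.08 ± 0.26, adjusted p = 0.0063), lost without replicate 1 of regular medium (-0.9, 0.05). It passed at no time in 130 mM against regular medium, and at 3 h in 222 mM it had 4.76, 9.66 and 8.31 FPKM, against 8.36, 5.68 and 6.38, so the groups overlapped. Cyp4t8, a fish gene of the family, was higher at 48 h in 130 mM, with 18.3, 18.6 and 17.1 FPKM, against 13.2, 12.6 and 12.7 (0.64 ± 0.15, adjusted p = 0.0039). The calls of cyp4v8 at 24 h and of cyp4t8 held with each library left out. Cyp4f3, related to the human leukotriene hydroxylases, was also called higher there, at 0.788, 1.42 and 1.09 FPKM against 0.375, 0.495 and 0.68 (1.24 ± 0.39, adjusted p = 0.025). The cyp4f3 call was lost without replicate 1 (1.05, 0.11) or 2 (1.21, 0.074) of regular medium and replicate 2 (1.01, 0.12) or 3 (1.24, 0.056) of 130 mM. Cyp4f3 reached 1 FPKM in 4 libraries, among them replicates 2 and 3 of 130 mM at 48 h. Without that group it would have missed the floor of 3 libraries, so its call there is not independent of the selection. Over the 4 family 4 members the summed level at 24 h was 29.5 ± 1.76 FPKM in 222 mM and 44.5 ± 1.29 FPKM in regular medium (SD, n = 3 each), a log2 ratio of -0.59.

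**Figure D5:**
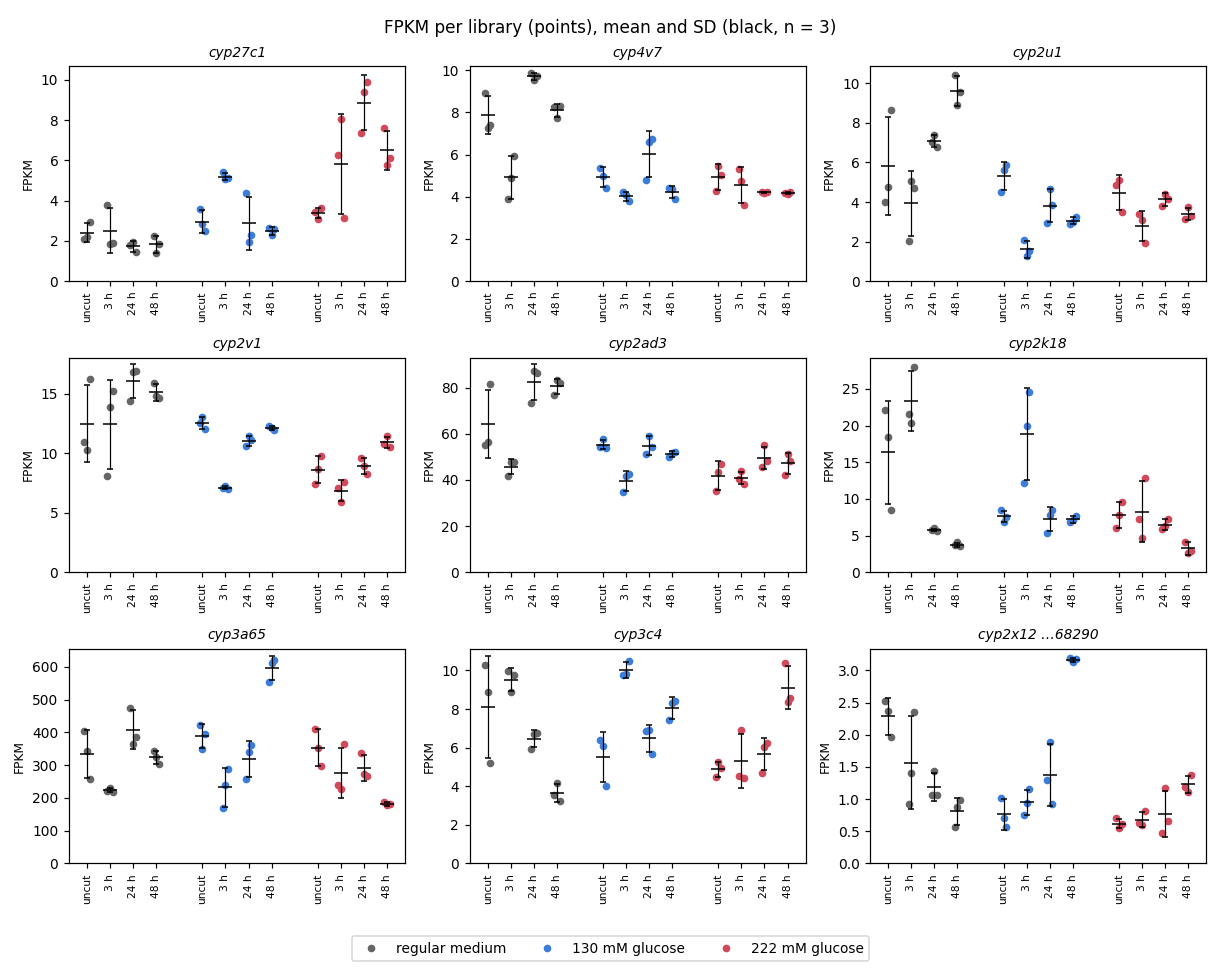
FPKM of 9 members of families 2, 3, 4 and 27 in each library of the 12 groups, with the group mean and SD (n = 3). Cyp4v7 lies at about the same level in all glucose groups at 48 h, below regular medium, and cyp3a65 at 48 h reaches 555 to 622 FPKM in 130 mM and 177 to 187 in 222 mM.

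Family 2, which makes up 35 of the 59 members, also held most of the lower members in 222 mM. Of its 35 members, 0 were higher and 13 lower at 3 h, 0 and 15 at 24 h, and 3 and 5 at 48 h. Of all genes, 11%, 15.7% and 7.05% were higher and 12.9%, 18.4% and 9.48% lower at these times. The summed level at 24 h was 250 ± 10.5 FPKM in 222 mM and 353 ± 7.77 FPKM in regular medium (SD, n = 3 each), a log2 ratio of -0.49. In 130 mM at 48 h, 10 were higher and 3 lower, with 8.98% of all genes higher and 10.9% lower. The groups of genes that lie together on a chromosome did not all do the same.

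In the cyp2k cluster on chromosome 3, 5 of 7 members were lower at 3 h and 4 of 7 at 24 h in 222 mM than in regular medium. Of all genes, 12.9% and 18.4% were lower at those times. Cyp2k8 and the cyp2k6 copy ENSDARG00000098995 passed at neither time. Cyp2k enzymes are known from fish liver. Cyp2k18 had 7.27, 4.67 and 12.8 FPKM at 3 h in 222 mM, against 21.6, 20.4 and 28 in regular medium (log2 fold change -1.36 ± 0.3, adjusted p = 0.0019). In regular medium it was lower at 48 h, at 3.65, 4.06 and 3.54 FPKM, against 22.1, 18.4 and 8.5 in uncut larvae (-2.14 ± 0.31, adjusted p = 5.2e-05). At 24 h in regular medium it had 5.73, 5.97 and 5.62 FPKM (-1.45 ± 0.3, adjusted p = 0.0035). In 130 mM it was higher at 3 h, at 12.2, 19.9 and 24.6 FPKM against 8.44, 6.85 and 7.52 in uncut larvae (1.36 ± 0.3, adjusted p = 0.0011). All of these groups were apart, and all 4 calls held with each library left out.

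Cyp2k19 and cyp2k20 shared the lower levels in glucose in uncut larvae. Cyp2k19 had 4.89, 7.74 and 7.74 FPKM in uncut 222 mM larvae, against 19.6, 20.2 and 9.38 in regular medium (log2 fold change -1.15 ± 0.22, adjusted p = 0.0006). Cyp2k20 had 0.782, 1.15 and 1.09 FPKM, against 3.35, 4.13 and 2.05 (-1.53 ± 0.28, adjusted p = 0.00039). In both genes the library of regular medium that stood apart was the closest to the glucose values, and both calls held with each library left out. The corresponding calls at 130 mM, and that of cyp2k18, held only without that library, with adjusted p-values of 0.077 to 0.36 without any other. The cyp2k6 copy gave the single higher call at 222 mM, at 0.578, 0.504 and 4.68 FPKM against 0.159, 0.267 and 0.494 (2.82 ± 0.88, adjusted p = 0.034), which rested on the third 222 mM library: without it the log2 fold change was 0.94 (adjusted p = 0.5). It was also lost without replicate 1 (2.52, 0.14) or 2 (2.75, 0.12) of regular medium.

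The chromosome 20 cluster held genes that differed in direction. Cyp2ad3, its most expressed gene, had 45.6, 55 and 48.1 FPKM at 24 h in 222 mM, against 73.2, 87.4 and 86.4 in regular medium (log2 fold change -0.74 ± 0.12, adjusted p = 2.3e-05). At 48 h it had 42.3, 51.3 and 48.1 FPKM in 222 mM and 50, 51.6 and 52.3 in 130 mM, against 77, 83.1 and 81.8 in regular medium (-0.74 ± 0.12, adjusted p = 8.5e-05, and -0.5 ± 0.12, adjusted p = 0.0038). Cyp2v1, which overlaps cyp2ad3 on the other strand, had 9.55, 8.96 and 8.25 FPKM at 24 h in 222 mM, against 14.4, 16.8 and 16.9 (-0.85 ± 0.14, adjusted p = 2.6e-05). The glucose and regular groups of both genes were apart, with calls that held for each library left out. Since they share the same stretch of chromosome 20, their values are uncertain for the single gene.

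Other genes of that cluster were higher at 48 h in 222 mM than in uncut larvae of that medium. Cyp2p7 had 14.5, 16.5 and 14.7 FPKM, against 6.83, 8.47 and 5.23 in uncut larvae (log2 fold change 1.05 ± 0.17, adjusted p = 6e-05). Cyp2ad6 had 31.4, 30.3 and 28.3 FPKM, against 12.3, 15.9 and 14.3 (0.98 ± 0.18, adjusted p = 0.0005). Both calls held with each library left out, and both genes were also higher than in regular medium at 48 h. Cyp2p7 had 11.9, 8.96 and 10.9 FPKM there, and cyp2ad6 17.1, 19.2 and 17.2 (for cyp2ad6 0.78 ± 0.18, adjusted p = 0.0035). The row of cyp2p7 spans those of cyp2p8, cyp2p9, cyp2p10 and cyp2j20. Of the 11 members, 4 were higher and 0 lower at 48 h in 222 mM than in uncut larvae. Of all genes, 8.41% were higher and 8.74% lower. At 3 h in 130 mM, 4 were higher and 2 lower, with 20.9% of all genes higher and 17.3% lower.

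Cyp2u1, in humans a fatty acid hydroxylase whose loss causes spastic paraplegia, was lower in glucose at 48 h. It had 3.15, 3.75 and 3.31 FPKM in 222 mM and 2.91, 2.99 and 3.25 in 130 mM, against 10.4, 8.89 and 9.57 in regular medium (log2 fold change -1.46 ± 0.25, adjusted p = 0.00016, and -1.5 ± 0.25, adjusted p = 0.00012). Every regular library lay more than 2 times above any glucose library. Uncut larvae in regular medium had 4.01, 4.78 and 8.64 FPKM, all below regular medium at 48 h. Cyp2u1 was lower in 5 comparisons of a glucose medium with regular medium, those at 48 h among them. At 24 h it had 3.79, 4.43 and 4.17 FPKM in 222 mM and 2.96, 4.67 and 3.83 in 130 mM. Regular medium had 7.05, 7.4 and 6.77 FPKM then, with no overlap. Against uncut larvae, 1 call of cyp2u1 was higher and 1 lower. In 130 mM it was lower at 3 h than in uncut larvae, at 2.08, 1.25 and 1.51 FPKM against 4.49, 5.62 and 5.85 (-1.67 ± 0.26, adjusted p = 2.6e-05). This call and those against regular medium at 48 h held with each library left out.

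The cyp2x and cyp2y genes belong to fish subfamilies, and some were higher in 1 medium or time and lower in another. The cyp2x12 copy ENSDARG00000068290 had 3.19, 3.13 and 3.18 FPKM at 48 h in 130 mM, against 0.566, 0.873 and 0.984 in regular medium (log2 fold change 2.12 ± 0.31, adjusted p = 1.9e-05). Uncut larvae in 130 mM had 1.02, 0.701 and 0.56 FPKM, so the gene was higher after the cut (2.19 ± 0.31, adjusted p = 0.00018), whereas in regular medium it was lower at 48 h than in uncut larvae, which had 2.52, 2.37 and 1.97 FPKM (-1.51 ± 0.3, adjusted p = 0.0013). In uncut larvae at 222 mM it had 0.698, 0.547 and 0.612 FPKM, below regular medium (-1.73 ± 0.31, adjusted p = 0.00032). None of these groups overlapped, and these 4 calls held with each library left out. The call in uncut larvae at 130 mM (-1.58 ± 0.3, adjusted p = 0.0047) was lost without replicate 3 of 130 mM (-1.4, 0.055).

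The cyp2y3 copy ENSDARG00000068493 had the lowest log2 fold change of the members called at 3 h in 222 mM. It had 2.45, 1.66 and 1.77 FPKM, against 9.29, 9.72 and 10 in regular medium (log2 fold change -2.17 ± 0.27, adjusted p = 1.7e-06). At 48 h in 130 mM it was higher, at 7.66, 6.68 and 7.99 FPKM against 3.23, 3.52 and 2.37 (1.44 ± 0.26, adjusted p = 0.0003). Its overlapping copy ENSDARG00000101423 was lower at 48 h than in uncut larvae in regular medium, with 29.4, 28.3 and 25.4 FPKM against 68.5, 60.5 and 38.3 (-1.02 ± 0.16, adjusted p = 0.0001). The groups were apart in each case, and all 3 calls held with each library left out.

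Cyp2x7, cyp2x8 and cyp2x9 lie next to each other on chromosome 25, from 17372290 to 17403598. In regular medium all 3 were lower at 48 h than in uncut larvae, where 7.45% of all genes were lower. In 130 mM all 3 were higher at 48 h than in regular medium, where 8.98% of all genes were higher. The calls in regular medium were lost without replicate 2 of the uncut larvae for cyp2x7 (adjusted p = 0.064) and cyp2x8 (0.061), without replicate 1 of them for cyp2x9 (0.063), without replicate 2 at 48 h for cyp2x7 (0.052) and without replicate 3 at 48 h for cyp2x7 (0.052) and cyp2x8 (0.061). The cyp2x8 call in 130 mM was lost without replicate 1 or 3 of 130 mM or replicate 2 or 3 of regular medium (0.07 to 0.15). Cyp2x9 had 8.76, 9.4 and 10.1 FPKM at 48 h in 130 mM, against 4.96, 3.27 and 2.35 in regular medium (log2 fold change 1.57 ± 0.37, adjusted p = 0.0036). Cyp2x7 had 1.46, 0.92 and 1.85 FPKM, against 0.655, 0.319 and 0.38 (1.79 ± 0.45, adjusted p = 0.0057), and both calls held with each library left out. In 222 mM cyp2x7 and cyp2x8 were lower at 48 h than in uncut larvae, cyp2x7 at 0.594, 0.63 and 0.381 FPKM against 1.6, 1.21 and 2.83 (-1.94 ± 0.45, adjusted p = 0.0032) and cyp2x8 at 1.67, 1.5 and 1.06 against 3.11, 4.54 and 2.13 (-1.31 ± 0.28, adjusted p = 0.0019). Both of these held with each library left out. Against regular medium at 48 h, 1 member of the cluster was higher in 222 mM and 1 lower. Cyp2x9 was higher, at 9.52, 9.36 and 9.45 FPKM, as it was in 130 mM. Cyp2x8 was lower there than in regular medium, which had 3.14, 2.4 and 2.05 FPKM of it.

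In the cyp2aa cluster, cyp2aa6 was lower at 24 h in both doses. It had 4.86, 5.12 and 4.28 FPKM in 222 mM and 5.07, 6.23 and 4.78 in 130 mM, against 10.5, 8.93 and 12.6 in regular medium (log2 fold change -1.18 ± 0.22, adjusted p = 0.00016, and -1.01 ± 0.22, adjusted p = 0.0058). Cyp2aa12 and cyp2aa4 were higher at 3 h than in uncut larvae in 130 mM, where 20.9% of all genes were higher. Cyp2aa12 had 14.6, 15.4 and 16.8 FPKM, against 9.67, 9.24 and 8.75 (0.81 ± 0.17, adjusted p = 0.00046). Cyp2aa4 had 1.56, 3.62 and 4.06 FPKM, against 1.16, 1.55 and 1.32, so its lowest library at 3 h lay just above the highest uncut one. Of the 7 members of the cluster, 4 were lower at 24 h in 222 mM, where 18.4% of all genes were lower. Outside the clusters, cyp20a1 was higher at 48 h in 130 mM, at 11.4, 11.4 and 11 FPKM against 8.09, 7.76 and 8.91 in regular medium (0.6 ± 0.16, adjusted p = 0.0075), and this held with each library left out.

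Genes of electron transfer and of haem metabolism, hmox1a among them, were tested as a list of 13. Por, the reductase of the microsomal P450 enzymes, was higher at 24 h in 222 mM, at a mean of 76.7 FPKM against 33.1 in regular medium (log2 fold change 1.2, adjusted p = 6.3e-05), and at 48 h, at 59.8 against 29.5 (1.05, 0.00084). At 24 h 1 of 13 redox genes was higher and 4 were lower, a share near the 34.1% of all genes. At 3 h in 222 mM 0 were higher and 6 lower than in regular medium, where 11% of all genes were higher and 12.9% lower. In 130 mM at 3 h, 8 were higher and 0 lower than in uncut 130 mM larvae, with 20.9% of all genes higher and 17.3% lower. Among the 8 were por, at 95.7 FPKM against 36.5 (1.44, 1.8e-05), and alas1, the first enzyme of haem synthesis, at 195 against 88.8 (1.18, 1e-05). At 48 h in 130 mM, 7 were higher and 0 lower than in regular medium, with 8.98% of all genes higher and 10.9% lower.

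Whether the response to amputation differed between a glucose medium and regular medium was tested over the 3 times together. For 130 mM, 23 of 59 members passed, or 39%, against 17.9% of all genes, and for 222 mM 19 passed, or 32.2%, against 15.3%. Cyp3c4, cyp3a65, cyp2x12 ENSDARG00000068290 and cyp2y3 ENSDARG00000068493 were among the 8 strongest at both doses. Both tests use the same 12 regular libraries. For 130 mM 15 to 29 members passed with 1 library left out, the lowest without replicate 3 of the uncut 130 mM larvae, and for 222 mM 11 to 25, with 12 without replicate 3 at 24 h and 11 without replicate 3 at 48 h, both of regular medium. Without the 4 libraries that stood apart, 38 and 34 passed, against 55.6% and 43.4% of all genes.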

How the data were processed

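Total RNA of whole larvae was sequenced in 36 libraries, 12 groups of 3. The deposited table gives for each of 30221 genes a count and an FPKM value per library. Per the submitters' processing notes, HISAT, GRCz11, StringTie and edgeR were used; their versions, the counting tool and its strand setting were not given in the sources used here. The counts deposited by the authors are whole reads per gene, not normalized. FPKM values, also deposited by the authors, are scaled to transcript length and depth, and are used here for levels. Gene names, identifiers and positions are those of the table. Members and gene lists were chosen with earlier results of these data known.

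Counts were tested with edgeR 4.0.16 in R 4.3.3, with TMM scaling, robust quasi-likelihood fits, 1 mean per group and all 36 libraries in 1 fit over the 20120 genes that reached 1 FPKM in 3 or more libraries. Benjamini-Hochberg adjustment ran over all these genes within each of 18 comparisons of 2 groups and 3 F tests, with a threshold of 0.05 and no minimum fold. The standard error of a log2 fold change was taken from its F value. The biological coefficient of variation common to all genes was 0.203, with a median prior of 6.93 degrees of freedom. The code was tested on simulated counts. Alternatives were DESeq2 1.42.0, median-ratio scaling, no expression filter, other FPKM floors for the members, a replicate block, a fit of the compared libraries alone, and leaving out each library or the 4 that stood apart. All members could be named, with values in every library for the 2 highest members of a role, for up to 4 called members per direction with the largest fold change, and for a preset list of enzymes. Per-library values of some other called members were added after seeing them.

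Total counts were 47904694 to 67514889. The lowest chi-square per degree of freedom between libraries of a group was 12.2, so none was a copy of another. What the replicate numbers mark is not stated. Same-numbered libraries deviated together, at correlations of 0.174, 0.152 and 0.389, only at 3 h against uncut in 222 mM. The tests treat these libraries as unpaired, and no fit with pairs in that comparison alone was run. Sequences of the members are not shown, as no sequence table was used here.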

Additional observations from a re-analysis of the deposited data

Results flagged for a closer look

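The amputation response, taken over 3, 24 and 48 h against uncut larvae, was tested for a difference between each glucose medium and regular medium with edgeR's quasi-likelihood F test, adjusted by the Benjamini-Hochberg method. Between 130 mM and regular medium it differed for 23 members, or 39%, against 17.9% of all genes. The strongest were the cyp2x12 copy ENSDARG00000068290 (adjusted p = 1.7e-05), cyp3c4 (0.00052), the cyp2y3 copies ENSDARG00000068493 (0.0013) and ENSDARG00000101423 (0.0034), cyp3a65 (0.0046), cyp2k18 (0.0054), cyp2x8 (0.0057) and cyp27b1 (0.0059). Between 222 mM and regular medium it differed for 19 members, or 32.2%, against 15.3% of all genes. The strongest there were cyp3c4 (5.7e-05), cyp4v7 (0.00033), the cyp2y3 copy ENSDARG00000068493 (0.0013), cyp27a7 (0.0027), the cyp2x12 copy ENSDARG00000068290 (0.0028), cyp3a65 (0.0052), cyp4v8 (0.0055) and cyp2ad3 (0.01). Both tests share the regular libraries. No group has more than 3 libraries, so single libraries were not tested as outliers.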

How the results depend on the processing

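Members called kept their direction in every alternative: of 197 member calls, 0 reversed, and 193 were kept with median-ratio scaling, 197 with DESeq2, 189 without the 4 libraries that stood apart, 187 with a replicate block, 166 with no expression filter and 121 in fits of the compared libraries alone. In fits that left out 1 library of a compared pair, 790 of 1182 such calls were kept. Counts of members moved by more than 1.5 times as follows, and the cause was not tested. DESeq2 called 13 at 130 mM against regular medium uncut (6 by edgeR), 2 at 222 mM against 130 mM uncut (1), 5 and 11 at 24 and 48 h in 130 mM (0 and 7) and 1 at 3 h in 222 mM (0). With no expression filter 3 were called at 130 mM uncut and 5 at 3 h in regular medium (8). With the replicate block 1 was called at 24 h in 130 mM (0), and other counts stayed within 1.5 times. At 3 h in 222 mM 0 were called with and without it. The block fits the same replicate effects in all groups. It therefore cannot decide whether pairs in that comparison alone would change its count. In fits of the compared libraries alone 0 were called for the 3 uncut comparisons, for 3 h in regular medium and for 130 mM against regular medium at 3 h. In those fits 2 and 6 were called at 24 and 48 h in regular medium, 2 and 28 at 24 and 48 h in 130 mM, 38 at 130 mM against regular medium at 48 h, 4 and 37 at 222 mM against regular medium at 3 and 48 h, and 7 in the test of 222 mM responses. The test over 12 groups has no such fit. Without the 4 libraries 27, 34 and 10 were called for 130 mM and 222 mM against regular medium and 222 mM against 130 mM uncut. For amputation they were 14, 23 and 28 in regular medium, 11 and 17 at 24 and 48 h in 130 mM, and 13, 14 and 25 in 222 mM. Against regular medium they were 26 and 31 at 3 and 48 h in 130 mM and 23 at 48 h in 222 mM, and 38 and 34 in the tests of 130 mM and 222 mM responses. With 1 library left out the counts ran from 0 to 23, 4 to 22 and 0 to 4 in the uncut comparisons, in the order above. For 3, 24 and 48 h after amputation they ran from 3 to 10, 2 to 18 and 7 to 25 in regular medium, 16 to 22, 0 to 4 and 2 to 6 in 130 mM, and 0 to 4, 2 to 7 and 9 to 15 in 222 mM. Against regular medium at those times they ran from 3 to 16, 3 to 8 and 14 to 16 in 130 mM, and 13 to 24, 16 to 22 and 9 to 11 in 222 mM. The tests of 130 mM and 222 mM responses ran from 15 to 29 and 11 to 25, and that over 12 groups from 50 to 56. A floor of 0.5 or 2 FPKM would have kept 66 or 51 members. Low levels limit the 8 members with a mean under 1 FPKM.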

Other observations

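Of 46 genes tested for enzymes that couple P450 products to water-soluble groups, 0 were higher and 24 lower at 3 h in 222 mM than in regular medium, where 11% of all genes were higher and 12.9% lower. At 24 h 2 were higher and 25 lower, with 15.7% of all genes higher and 18.4% lower. Gstt1b, a glutathione transferase, averaged 6.72 FPKM at 24 h in 222 mM, against 28.8 FPKM in regular medium (log2 fold change -2.11, adjusted p = 1.6e-10). Sult1st5, a sulfotransferase, averaged 1.14 FPKM, against 5.17 (-2.19, 1.7e-07). The higher genes were ugt5a1 and ugt5a2, glucuronosyltransferases, at 1.9 FPKM against 0.778 (1.27, 0.032) and 2.55 against 0.922 (1.45, 0.0053). By 48 h in 222 mM 9 were higher and 5 lower, with 7.05% of all genes higher and 9.48% lower, and in 130 mM 15 were higher and 2 lower, with 8.98% higher and 10.9% lower. Enterocyte markers were lower at 3 and 24 h in 222 mM too, and their part in these counts was not tested.

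Of 23 nuclear receptors and regulators, 3 were higher and 2 lower at 24 h in 222 mM than in regular medium, with 15.7% of all genes higher and 18.4% lower. The lower ones were fgf19 and nr0b2a, and the higher ones nr5a2, rxrga and ppargc1a. Fgf19, a hormone of the gut, averaged 0.115 FPKM in 222 mM, against 1.87 FPKM in regular medium (log2 fold change -3.97, adjusted p = 0.0087). Nr0b2a, a nuclear receptor that lacks a DNA-binding domain, averaged 5.13 FPKM, against 16.5 (-1.7, 0.019). Ppargc1a, a coactivator of mitochondrial genes, averaged 8.73 FPKM, against 3.65 (1.25, 6.6e-08).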
